A study of Oryza sativa with 12 samples.

Results

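The 15 loci described here are rice genes whose transcripts were lower by 8-fold or more in both OsC3'H1 knockout lines than in either of the wild-type groups. RNA sequencing was done on whole aerial parts of cultivar Nipponbare, in 12 samples that form 4 groups of 3 biological replicates. The groups are knockout line a and knockout line b, both T3 plants sampled at 12 days, wild type at 12 days and wild type at 5 days. All plants were raised on solid half-strength Murashige and Skoog medium in closed boxes. The labels describe a move on day 7 to a hypotonic tap-water solution for wild-type plants only, so at 12 days genotype and growth medium cannot be told apart. The 5-day wild type was sampled before that move, but it is younger than the knockout plants. Sample titles and source names disagree on which knockout line is a and which is b. The titles were followed here, and results would swap lines if the source names were right. How many independent editing events the lines stand for, and what each allele is, is not stated.

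OsC3'H1 encodes the enzyme that adds a ring hydroxyl group to p-coumaroyl esters on the way to lignin, the phenolic polymer of plant cell walls. Rubisco, to which 1 of the 15 loci contributes a subunit, fixes carbon dioxide in the chloroplast and is assembled from a large subunit encoded in the chloroplast and a small subunit encoded by a nuclear RBCS gene family. Transcripts of the small subunit are among the most abundant in green leaves, and they are known to depend on light, on sugar status and on the state of the chloroplast.

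The loci were taken from the deposited Cuffdiff table, which holds 37672 loci and gives each group 1 FPKM value over its 3 replicates (FPKM is a fragment count scaled to transcript length and to the mapped fragments). A locus qualified if it held a single RAP gene identifier, reached 10 FPKM in both wild types, and had a lower wild-type value at least 8 times its higher knockout value. Of the 10461 loci with 1 identifier and 10 FPKM or more in both wild types, 15 met the ratio, which is 0.143%. Since these values chose the loci, every knockout against wild-type difference below is a description and no test of it is offered. Values per replicate and read depth are unknown, so no SD between replicates can be given. Errors printed with log2 ratios were obtained by dividing the ratio by its Cuffdiff statistic, and are called implied errors. For 1 of the 15, Os12g0274700, the symbol written for it in the pathway lists described below (RBCS) was matched in the RefSeq gene table used here. The match was made by written symbol, so loci without one were not looked up. The other 14 are given by identifier and no role is assigned to them.

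Os05g0494000, the locus known as OsC3'H1 in rice (an assignment that neither the table nor RefSeq carries), stood at 10.7 FPKM in line a and 12.9 FPKM in line b, against 53.1 FPKM in 12-day and 65.7 FPKM in 5-day wild type. Of the loci tested in both lines against both wild types, 16.9% were called lower throughout, so this fall cannot by itself settle the labels. Its own ratio of lower wild-type to higher knockout value was 4.13, so it is not among the 15.

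The 15 loci fell into groups of very different abundance, and the word lost would describe only some of them. In both lines 5 of them kept 10 FPKM or more, and the other 10 were under 10 FPKM in both lines. Those 10 lay between 0.962 and 5.67 FPKM in line a and between 0.578 and 7.54 FPKM in line b. None was listed at 0 in any group. Over all 15 the median was 3.99 FPKM in line a and 4.35 FPKM in line b, against 100.4 FPKM in 12-day and 70.2 FPKM in 5-day wild type. The range in the wild types ran from 18.9 to 23720 FPKM at 12 days and from 12.3 to 20083 FPKM at 5 days.

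**Figure D1:**
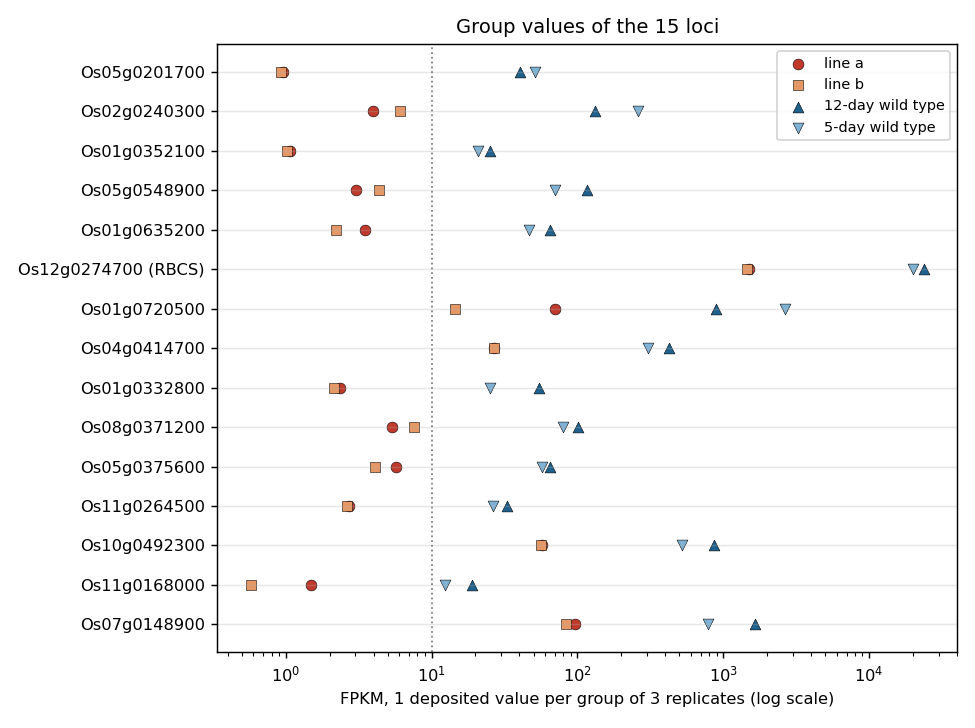
FPKM of the 15 loci on a log scale, with 1 point per group (circle line a, square line b, upward triangle 12-day wild type, downward triangle 5-day wild type); loci are ordered by the ratio of the lower wild-type to the higher knockout value. The dotted line marks 10 FPKM, and 5 loci have all their points to the right of it.

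RBCS (Os12g0274700, IRGSP-1.0 chromosome 12, 10080504 to 10081588), a small subunit of Rubisco, was the most abundant of the 15 in every group. It stood at 1507 FPKM in line a and 1452 FPKM in line b, against 23720 FPKM in 12-day wild type and 20083 FPKM in 5-day wild type. This RBCS transcript was therefore far from absent in the knockouts: among the 10461 loci it ranked 11 for line a and 13 for line b, against rank 2 in 12-day and in 5-day wild type. Its values were 15.7-fold lower in line a and 16.3-fold lower in line b than in 12-day wild type by the authors' deposited table. The lines agreed closely for RBCS (line b over line a, log2 -0.05, implied error 0.22), and so did the wild types (12-day over 5-day, log2 0.24, implied error 0.31), without a call in either comparison. Some RBCS genes are near-identical copies of each other, and sequences were not compared here, so how reads were shared among them is uncertain. Pathway lists described below hold other loci written under an RBCS name that RefSeq did not match, and these are given no role here. Their ratios of lower wild-type to higher knockout value were 4.01 for Os12g0291100, 5.15 for Os12g0291400, 3.88 for Os12g0292400 and 0.405 for Os02g0152400. Another, Os12g0291200, was listed at 0 in all 4 groups.

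Another 4 loci kept 10 FPKM or more in both knockouts. Os07g0148900 (chromosome 7, 2546294 to 2547298) had 96.4 FPKM in line a and 84.2 FPKM in line b, against 1663 FPKM in 12-day and 784 FPKM in 5-day wild type. Os10g0492300 (chromosome 10, 18687942 to 18693640) had 56.9 and 56.5 FPKM in lines a and b, against 858 FPKM in 12-day and 518 FPKM in 5-day wild type. Os04g0414700 (chromosome 4, 20496053 to 20497009) had 26.6 and 27.0 FPKM in lines a and b, against 425 FPKM in 12-day and 305 FPKM in 5-day wild type. In all 3 the knockout values lay close together and the 12-day wild type was the higher of the wild types. Os01g0720500 (chromosome 1, 30030997 to 30032054) differed from these, with 69.8 FPKM in line a and 14.5 FPKM in line b, against 897 FPKM in 12-day and 2671 FPKM in 5-day wild type. It had the widest spread of the 15 within each genotype, and its difference between line b and 5-day wild type, 185-fold, was the largest of all 60 knockout over wild-type ratios of these loci in the authors' deposited table.

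The largest ratio belonged to Os05g0201700 (chromosome 5, 6333091 to 6333934), which was at 0.962 FPKM in line a and 0.927 FPKM in line b, against 40.6 FPKM in 12-day and 51.1 FPKM in 5-day wild type. Its lower wild-type value was 42.2 times its higher knockout value. Os02g0240300 (chromosome 2, 7948542 to 7960643) came next, with 3.99 FPKM in line a and 6.05 FPKM in line b, against 131 FPKM in 12-day and 259 FPKM in 5-day wild type. These 2 and Os01g0720500 are the 3 loci of the 15 whose value was lower in 12-day than in 5-day wild type.

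Os01g0352100 (chromosome 1, 14101989 to 14108083) had 1.06 FPKM in line a and 1.03 FPKM in line b, against 25.0 FPKM in 12-day and 20.7 FPKM in 5-day wild type. Os05g0548900 (chromosome 5, 27229413 to 27233659) had 3.04 FPKM in line a and 4.35 FPKM in line b, against 116 FPKM in 12-day and 70.2 FPKM in 5-day wild type. These 2 complete the 4 loci with a ratio of 16 or more. Os01g0635200 (chromosome 1, 25462002 to 25463635), with a ratio of 13.3, had 3.52 FPKM in line a and 2.22 FPKM in line b, against 65.1 FPKM in 12-day and 46.9 FPKM in 5-day wild type.

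The remaining 5 loci were all under 10 FPKM in both knockouts and higher in 12-day than in 5-day wild type. Os01g0332800 (chromosome 1, 12896358 to 12919209) had 2.34 FPKM in line a and 2.13 FPKM in line b, against 54.8 FPKM in 12-day and 25.3 FPKM in 5-day wild type. Os08g0371200 (chromosome 8, 17299305 to 17323251) had 5.32 FPKM in line a and 7.54 FPKM in line b, against 100.4 FPKM in 12-day and 79.8 FPKM in 5-day wild type. By their deposited bounds these are the longest of the 15 loci, spanning 22851 and 23946 bases. Os01g0332500 and Os01g0332700 share the bounds of Os01g0332800, so its span need not be that of 1 gene. Os05g0375600 (chromosome 5, 18126182 to 18130025) had 5.67 FPKM in line a and 4.10 FPKM in line b, against 65.3 FPKM in 12-day and 57.1 FPKM in 5-day wild type. Os11g0264500 (chromosome 11, 8989785 to 8994773) had 2.73 and 2.61 FPKM in lines a and b, against 32.9 FPKM in 12-day and 26.3 FPKM in 5-day wild type. Os11g0168000 (chromosome 11, 3288493 to 3289070) had the lowest value of the 15 in line b and in both wild types, with 1.49 FPKM in line a and 0.578 FPKM in line b, against 18.9 FPKM in 12-day and 12.3 FPKM in 5-day wild type.

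Against 12-day wild type the median log2 ratio of the 15 loci was -4.11 for line a and -4.44 for line b, and against 5-day wild type it was -3.74 and -3.80, by the authors' deposited table. The medians over the loci at 10 FPKM or more in both wild types were -0.12, -0.13, -0.16 and -0.16 in the same order. The comparisons share their knockout and wild-type groups, so their likeness is not independent. Calls at a deposited q under 0.05 are printed here without being read, as the contrast chose the loci: 13 of 15 for line a and 12 of 15 for line b against 12-day wild type, beside 23.5% and 24.2% of all tested loci called lower, and again 13 and 12 against 5-day wild type, beside 26.2% and 26.6%. Being called lower in all 4 held for 12 of the 15, beside 16.9% of the loci tested in all 4.

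The 3 exceptions were loci with knockout values of 3.52 FPKM or less and wide implied errors. These traits were not particular to them. Os01g0352100, at 1.06 FPKM in line a and 1.03 FPKM in line b with implied errors of 1.04 to 1.13, was called lower in all 4. Os05g0201700, which had the largest ratio of the 15, was called in none of the 4 comparisons: its log2 ratio in line a over 12-day wild type was -5.40 (implied error 1.93, Cuffdiff q of 0.392) in the authors' deposited table. Os11g0168000 was likewise called in none, at -3.66 (implied error 1.46, Cuffdiff q of 0.104) in that comparison of the authors' deposited table. Os01g0635200 was called lower in line a against both wild types and not in line b, where its log2 ratio to 12-day wild type was -4.88 (implied error 1.35, Cuffdiff q of 0.104) in the authors' deposited table. Solved by group, the implied log2 error of the 15 loci had a median of 0.49 for line a and 0.43 for line b, against 0.17 for 12-day and 0.17 for 5-day wild type. For RBCS the order was the other way at 12 days, with 0.16 for line a and 0.15 for line b, against 0.28 for 12-day and 0.14 for 5-day wild type.

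**Figure D2:**
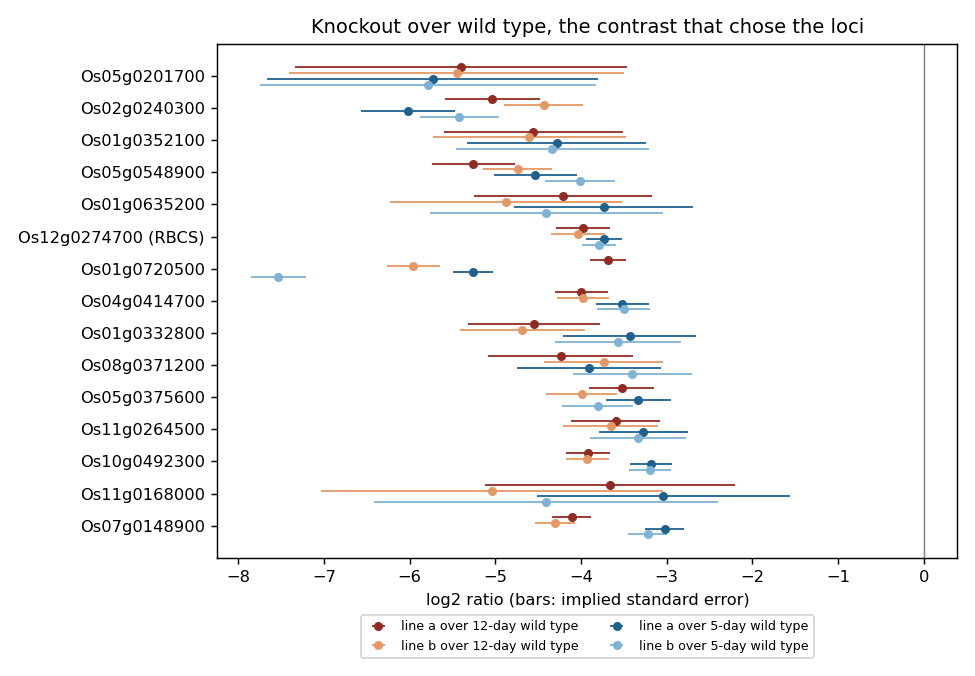
Deposited log2 ratios of the 15 loci in the 4 knockout over wild-type comparisons, with bars for the implied standard error (dark red line a and orange line b over 12-day wild type, dark blue line a and light blue line b over 5-day wild type). Every point lies to the left of -3, and the widest bars belong to Os05g0201700 and Os11g0168000, with implied errors of up to 1.96 and 2.01.

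Age within the wild type was not used to choose the loci, apart from the 10 FPKM minimum and the ratio that both ages had to meet. By the labels the 12-day wild type had been moved to the tap-water solution on day 7, after the 5-day wild type was sampled. Age and growth medium thus cannot be told apart in this comparison, which is called the age comparison for short. Between 12 and 5 days 6 of the 15 loci rose and 2 fell by the deposited Cuffdiff q. That is 40.0% and 13.3% of the 15, beside 14.8% higher and 13.5% lower over all 17250 tested loci, and 14.8% and 16.5% over the loci at 10 FPKM or more in both wild types. These shares describe 15 loci chosen by their FPKM values in both knockout lines and in both wild types. The age comparison uses the same wild-type FPKM values that the loci were selected on, so the shares are not independent of that choice. No test of them was made. The loci that rose were Os01g0332800, Os07g0148900, Os10g0492300, Os05g0548900, Os04g0414700 and Os01g0635200. Os01g0332800 rose 2.17-fold (log2 1.12, implied error 0.24) and Os07g0148900 rose 2.12-fold (log2 1.08, implied error 0.20), both with a Cuffdiff q of 0.000253 in the authors' deposited table. Os10g0492300 and Os05g0548900 had log2 ratios of 0.73 and 0.72 with implied errors of 0.23 and 0.21, and Os04g0414700 had 0.48 with an implied error of 0.21, by the authors' deposited table. Os01g0635200 was the weakest call of the set (log2 0.47, implied error 0.33, Cuffdiff q of 0.0408) in the authors' deposited table.

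In 12-day wild type 2 loci were called lower than in 5-day wild type. Os01g0720500 was 2.98-fold lower (log2 -1.57, implied error 0.22) and Os02g0240300 1.98-fold lower (log2 -0.98, implied error 0.21) in the authors' deposited table. Each had a Cuffdiff q of 0.000253 in that table. The other 7 loci, RBCS among them, had log2 ratios from -0.33 to 0.62 by the authors' deposited table and were not called. By direction alone 12 of the 15 stood higher at 12 than at 5 days, which is 80.0%, against 45.2% of the loci at 10 FPKM or more in both wild types. For those 12 the 5-day value was thus the one that limited the ratio. The 80.0% also rests on wild-type FPKM values that the loci were selected on, and no test of it was made.

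Between the knockout lines 9 of the 15 loci were tested by Cuffdiff and 1 was called. Os01g0720500 was 4.83-fold lower in line b than in line a (log2 -2.27, implied error 0.31, Cuffdiff q of 0.000253) in the authors' deposited table, beside 2.52% of all tested loci called lower and 2.47% called higher. No locus of the 15 was called higher in line b by Cuffdiff, and 0 had an unadjusted Cuffdiff p under 0.05 in that direction. The remaining 8 tested loci had log2 ratios from -0.47 to 0.60 in the authors' deposited table, with implied errors from 0.22 to 1.06. In each of these 8 the implied error was larger than the size of the log2 ratio, and Os08g0371200, with a ratio of 0.50, had the widest error. How small a difference between the lines could have been called was not computed. The 6 untested loci were among those with the lowest knockout values. Os11g0168000, at 1.49 FPKM in line a and 0.578 FPKM in line b, was the untested locus with the largest difference between the lines.

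**Figure D3:**
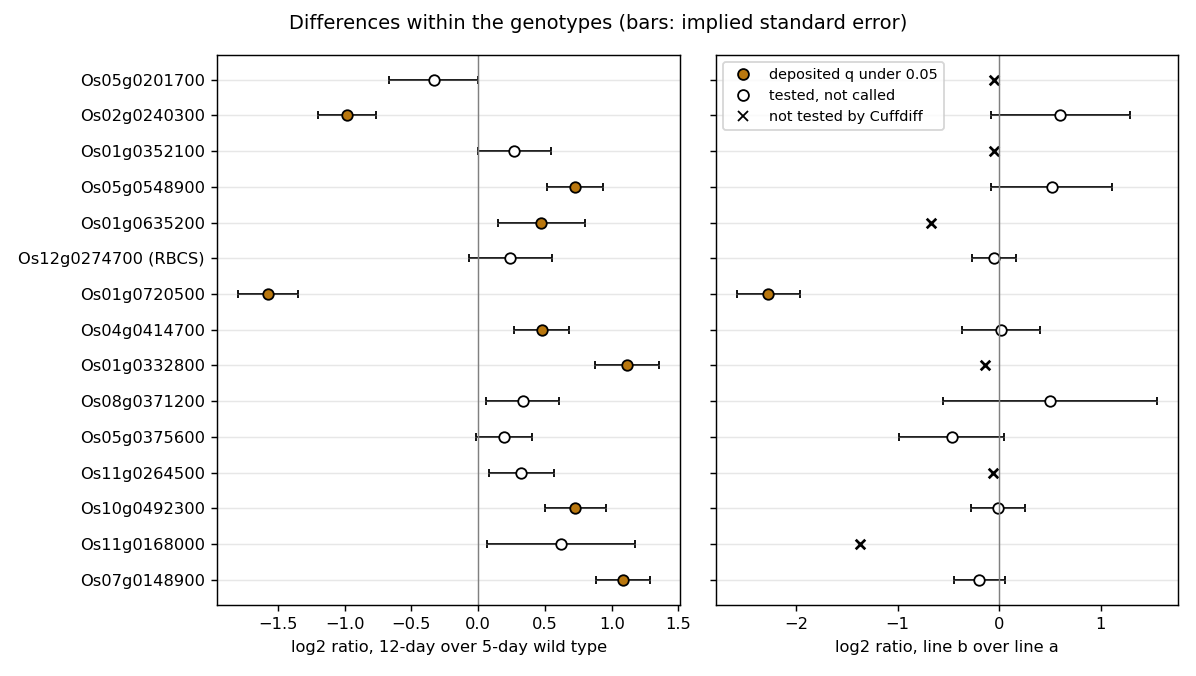
Deposited log2 ratios of the 15 loci between the wild types (left, 12-day over 5-day) and between the knockout lines (right, line b over line a), with bars for the implied standard error, filled points called at a deposited q under 0.05, open points tested without a call, and crosses for loci Cuffdiff did not test. Os01g0720500 is the point farthest left in both panels, at -1.57 and -2.27.

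The ratio of 8 did not fall at a gap in the distribution. Just inside it were Os07g0148900 at 8.13, Os11g0168000 at 8.23, Os10g0492300 at 9.10, Os11g0264500 at 9.65 and Os05g0375600 at 10.1. Just outside were Os03g0146800 at 7.55, Os01g0639900 at 7.46, Os07g0558400 at 7.45, Os02g0197600 at 7.45 and Os02g0827400 at 7.13. Over all 10461 loci the median ratio was 0.969, and 1071 loci reached 2, 180 reached 4, 15 reached 8, 4 reached 16 and 1 reached 32. Judged by 12-day wild type alone, 74 of these loci had the 8-fold difference to both lines, and judged by 5-day wild type alone, 30 had it. No locus that merges several RAP identifiers met the thresholds.

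**Figure D4:**
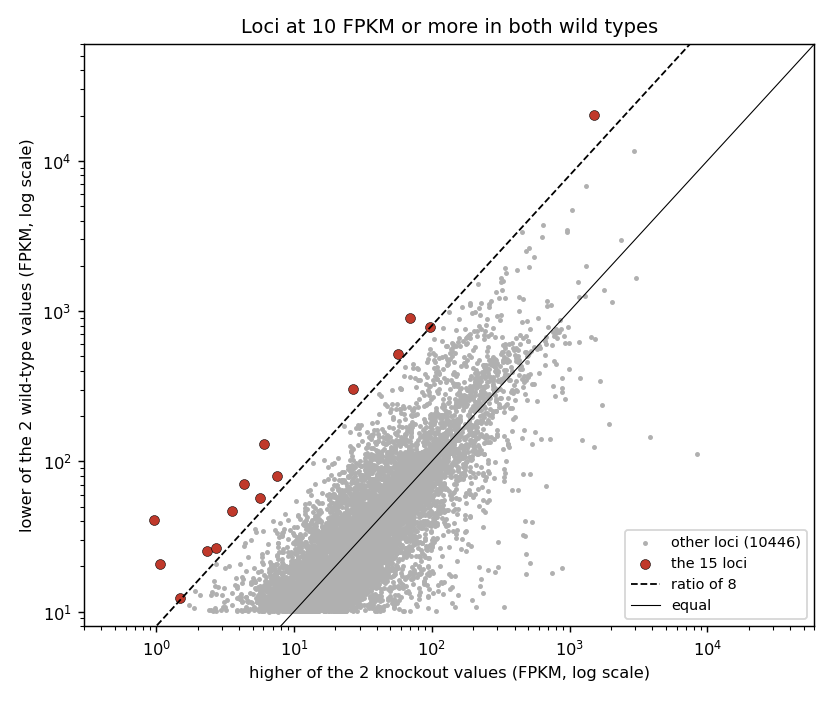
Lower of the wild-type values against the higher of the knockout values, in FPKM on log scales, for the 10461 loci with 1 identifier and 10 FPKM or more in both wild types; red points are the 15 loci, grey points the other 10446, the dashed line a ratio of 8 and the thin line equal values. The red points run from Os11g0168000, with a lower wild-type value of 12.3 FPKM, to RBCS at 20083 FPKM.

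Genomic position was not part of the rule. The 15 loci lay on 9 chromosomes, 4 on chromosome 1, 3 on chromosome 5, 2 on chromosome 11 and 1 each on chromosomes 2, 4, 7, 8, 10 and 12, and the closest pair on a chromosome was 1182780 bases apart. None of the 30 loci that flank them in the table is 1 of the 15. Of the 30, 16 were at 1 FPKM or more in both wild types, and their ratio of lower wild-type to higher knockout value had a median of 0.906, with 1 at 2 or more. That neighbour was Os11g0167500, next to Os11g0168000, at 1.99 FPKM in line a and 1.97 FPKM in line b, against 10.3 FPKM in 12-day and 7.24 FPKM in 5-day wild type. Os11g0167500 was called lower in none of the 4 knockout over wild-type comparisons. The neighbour called lower in all 4 comparisons was Os01g0635400, 2739 bases past Os01g0635200, at 5.64 FPKM in line a and 8.39 FPKM in line b, against 17.0 FPKM in 12-day and 14.8 FPKM in 5-day wild type.

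The table lists other loci with the same bounds for some of the 15, 6 such loci in all. They share bounds with RBCS, Os01g0332800, Os01g0352100, Os05g0548900 and Os05g0375600, so the spans of these need not be those of single genes. Os12g0274750 has the same bounds as RBCS and stood at 0.278 FPKM in line a and was listed at 0 in line b, against 2.53 FPKM in 12-day and 1.40 FPKM in 5-day wild type. The strand used in counting is not given in the sources used here, so reads of such partners cannot be told apart. Within the table's bounds 7 of the 15 loci span under 2000 bases (46.7%, against 14.9% of the loci at 10 FPKM or more in both wild types), RBCS and Os01g0720500 among them, and 3 span over 10000 bases, beside 11.9%. The median span was 3843 bases for the 15 and 4158 bases for the loci at 10 FPKM or more.

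RBCS was the 1 locus of the 15 with a RefSeq symbol among 8 pathway lists, which cover photosynthesis, chlorophyll, nitrogen and flavonoid genes. Of the 95 loci in these lists, 29 carry a RefSeq symbol or synonym at the matching place, and the gene groups below count these alone. Of the 29, 28 were tested in all 4 knockout comparisons, and 25 of them fell in all 4, beside 16.9% of all tested loci. The other 66 have no matched symbol and are given no role; 56 of the 59 tested in all 4 fell in all 4, and none was higher in all 4. Among these 66 are 3 of the 15, Os01g0720500, Os04g0414700 and Os07g0148900, and at 10 FPKM or more in both wild types the ratios ran from 0.405 for Os02g0152400 to 12.9 for Os01g0720500. Os02g0152400 stood at 80.7 FPKM in line a and 94.2 FPKM in line b, against 38.2 FPKM in 12-day and 124 FPKM in 5-day wild type; by the deposited q it was higher in both lines than in 12-day and lower than in 5-day wild type. Next to RBCS, with a ratio of 13.3, the highest of the other loci with a symbol was CAB2R (Os01g0600900), a chlorophyll-binding protein of the light-harvesting antenna, with a ratio of 6.35. CAB2R stood at 43.0 FPKM in line a and 29.9 FPKM in line b, against 273 FPKM in 12-day and 840 FPKM in 5-day wild type. Leaving RBCS out, 27 loci with a symbol had 10 FPKM or more in both wild types, and 12 of them had a ratio of 4 or more.

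Among Rubisco and Calvin cycle genes the 3 with a symbol, of 17 written, fell in all 4 comparisons. RCA (Os11g0707000), which encodes the activase that frees Rubisco of bound inhibitors, had 1046 FPKM in line a and 806 FPKM in line b, against 9116 FPKM in 12-day and 4706 FPKM in 5-day wild type, a ratio of 4.50. FBPase (Os03g0267300), a phosphatase of carbon reduction and sugar synthesis, had a ratio of 4.51. Of 24 photosystem and electron transport genes written, the 6 with a symbol fell in all 4, with ratios from 4.29 for PETC, the Rieske protein of the cytochrome complex, to 5.17 for PSBW, a small subunit of photosystem II. Of 11 chlorophyll synthesis genes written, the 8 with a symbol fell in all 4, with a median ratio of 3.11, from 2.24 for GSA to 3.88 for DVR. Of 10 photorespiration genes written, 1 has a symbol, GLO1, a glycolate oxidase, which fell in all 4 with a ratio of 2.07.

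Of 11 nitrogen assimilation genes written, 6 have a symbol and 5 were tested, and 3 of these fell in all 4 comparisons. FD-GOGAT, a glutamate synthase that uses ferredoxin, had a ratio of 4.80, GS2, the plastid glutamine synthetase, 4.28, and NIA1, a nitrate reductase, 4.07. NIA1 had 2.65 FPKM in line a and 4.18 FPKM in line b, against 63.2 FPKM in 12-day and 17.0 FPKM in 5-day wild type, so that the 5-day value kept it out of the 15. The other 2 tested encode cytosolic glutamine synthetases and differed from these. GS1;1 had 349 FPKM in line a and 294 FPKM in line b, against 242 FPKM in 12-day and 250.4 FPKM in 5-day wild type, and was called higher in 3 of 4 comparisons. GS1;2 had 44.1 FPKM in line a and 40.4 FPKM in line b, against 33.7 FPKM in 12-day and 70.8 FPKM in 5-day wild type, and was called higher in line a than in 12-day wild type and lower in both lines than in 5-day wild type. Both flavonoid genes with a symbol fell in all 4, CHS1 with a ratio of 3.34 and CHI with 1.46. Of the chloroplast regulators, GLK1 fell in all 4 with a ratio of 1.99, while GLK2, with a ratio of 0.964, was called lower against 12-day wild type and in neither line against 5-day wild type. The lists were drawn up with earlier results on these samples known, so their counts are not independent evidence of a direction.

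**Figure D5:**
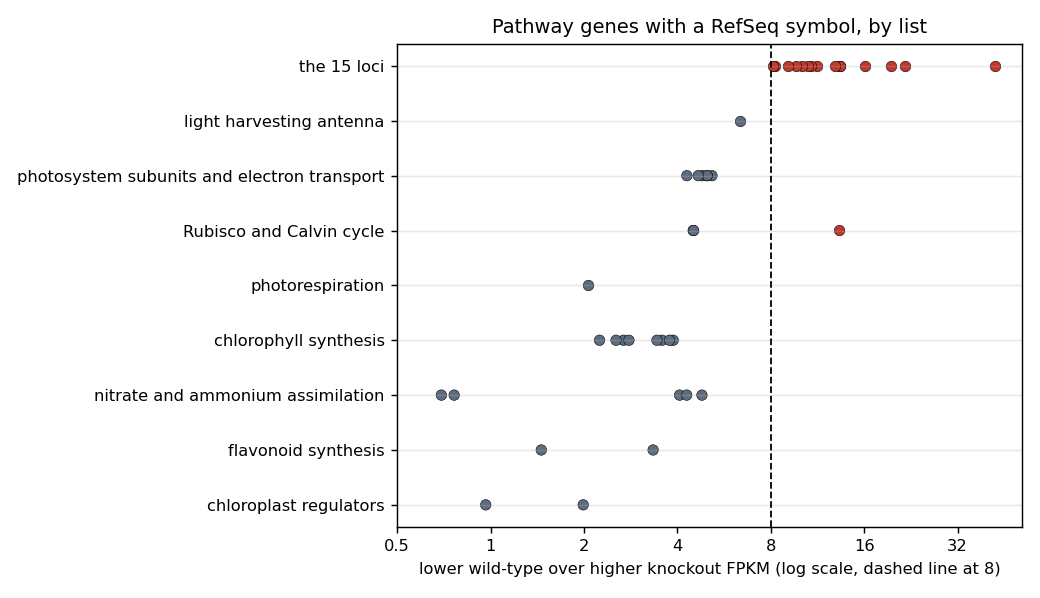
Ratio of the lower wild-type to the higher knockout FPKM on a log scale, for the 15 loci (top row) and for pathway genes with a RefSeq symbol and 10 FPKM or more in both wild types, 1 point per locus, red for the 15. RBCS, at 13.3, is the list gene to the right of the dashed line at 8, and CAB2R, at 6.35, comes nearest to it from the left among the genes plotted below the top row.

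Of the markers of roots, shoot meristem and seed, those at 1 FPKM or more stood higher in both lines than in 12-day wild type. Against 5-day wild type the direction differed between these markers. Of 5 markers of these tissues with a RefSeq symbol, 3 were at 1 FPKM or more in each of line a, line b and 12-day wild type and 1 in 5-day wild type. Their summed level was 18.4 FPKM in line a and 16.8 FPKM in line b, against 7.98 FPKM in 12-day and 11.3 FPKM in 5-day wild type. LSI1, a silicon transporter of roots, had 6.56 FPKM in line a and 6.99 FPKM in line b, against 2.31 FPKM in 12-day and 10.7 FPKM in 5-day wild type, and was called higher in both lines than in 12-day and lower than in 5-day wild type. OSH1, a homeobox gene of the shoot meristem, had 5.91 FPKM in line a and 5.00 FPKM in line b, against 3.18 FPKM in 12-day wild type, and was listed at 0 in 5-day wild type. OSH15, of the same family, had 5.87 FPKM in line a and 4.64 FPKM in line b, against 2.39 FPKM in 12-day wild type, and was likewise listed at 0 in 5-day wild type. Against 12-day wild type both were called higher for line a alone, and against 5-day wild type they were called higher for both lines. LSI2, another root silicon transporter, was listed at 0 in all 4 groups, and the seed storage protein gene GLUA1 was at 0.526 FPKM or less in each. The part of tissue make-up in the values of the 15 loci was not tested, and in such bulk samples fewer cells of a type and less RNA per cell cannot be told apart.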

How the data were processed

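RNA of whole aerial parts was sequenced in 12 samples, 4 groups of 3. Trimmomatic, FastQC, HISAT2, Cufflinks and Cuffdiff were used on IRGSP-1.0, per the submitters' processing notes. Versions, options and annotation release are not given in the sources used here. The deposited table holds FPKM, 1 per group, computed by the authors, with scaling between libraries not given in the sources used here. Log2 ratios, a test score (the Cuffdiff statistic), p-value and q-value columns are also as deposited by the authors. The deposited q equals a Benjamini-Hochberg adjustment over 108602 tests of 6 comparisons to within 5.27e-07. The smallest p is 5e-05.

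Here the rule, log2 ratio over score (implied error), calls at q under 0.05 and counts were computed with Python 3.11.15, pandas 2.3.3 and scipy 1.17.1. The normal deviate of the deposited p was a median 1.75 times the score over tests with p between 0.001 and 0.5; for single loci such as Os05g0201700 it was smaller than the score. Functions were tested on simulated data. Coordinates are as deposited. Of 102 list loci written, 34 were kept, having the same symbol or synonym in RefSeq (assembly ASM3414082v1) on the same chromosome within 0.02 of its length. All 15 loci are named, with the 5 nearest outside the ratio and the list genes. Neighbours were named after their values were seen. The loci and lists were chosen with earlier results of these data known. Alternatives were stricter and looser thresholds, a pseudocount, other adjustments and, after seeing the data, rescaling. Replicates are biological per the labels.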

Additional observations from a re-analysis of the deposited data

Results flagged for a closer look

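Os01g0720500 is the locus of the 15 whose knockout lines differed by the deposited test. It had 14.5 FPKM in line b and 69.8 FPKM in line a, a log2 ratio of -2.27 with an implied error of 0.31 in the authors' deposited table. Against 12-day wild type (897 FPKM) it was 62.1-fold lower in line b and 12.9-fold lower in line a, by the authors' deposited table. The wild types, with 897 FPKM at 12 days and 2671 FPKM at 5 days, differed for this locus as well.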

How the results depend on the processing

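The number of loci depends on the thresholds that define it: 180 with a ratio of at least 4, 4 with a ratio of at least 16 and 23 with a minimum of 5 FPKM, in place of 15. It was 14 with a minimum of 20 FPKM, 15 with merged loci kept and 13 with the groups rescaled to equal medians, a choice made after seeing the data that left out Os07g0148900 and Os11g0168000. Of the loci called between 12 and 5 days in wild type (6 higher, 2 lower), 2 and 1 passed with at least a 2-fold change. With a ratio of at least 4 the counts were 91 and 21, and with at least 16 they were 1 and 1. Between the lines (line b over line a, 0 higher, 1 lower) a ratio of at least 4 gave 1 higher and 28 lower, and at least 16 gave 0 lower. Os01g0635200 was no longer called between the ages with q under 0.01, with adjustment over the comparison alone, with the normal test of the implied error or with a 2-fold minimum, and Os04g0414700 not with the last 2. With that normal test 14 of the 15 rather than 12 were lower in all 4 knockout comparisons. Its use on this count was added after seeing the data. A pseudocount of 1 FPKM cannot change the sign of a ratio, as it is added to both values. With it the median log2 ratio of the 15 loci over 12-day wild type was -3.95 for line a and -4.03 for line b. Without it the medians were -4.11 and -4.44. No paired analysis was possible because the table holds 1 value per group, and for the same reason no replicate could be left out. Promoter motifs, planned for reference promoters, were not run. Counts of reads are not in the values used here, so the depth behind values near 1 FPKM is unknown.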

Other observations

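The opposite rule, with a lower knockout value of 10 FPKM or more that is at least 8 times the higher wild-type value, was met by 212 of 11142 loci (1.9%), against 15 of 10461 (0.143%) for the loci described above. Below the 10 FPKM minimum another 25 loci of 1 identifier, with a lower wild-type value of 1 to under 10 FPKM, also reached the ratio of 8.

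Among the 180 loci with a ratio of 4 or more, 155 were tested between the knockout lines, and 28 were called lower and 1 higher in line b than in line a by the deposited Cuffdiff q. The share called lower was 18.1%, beside 2.52% of all tested loci, and 2.47% of all tested loci were called higher. Over the tested loci at 10 FPKM or more in both wild types, 2.52% were called lower and 1.58% higher. By direction alone 76.1% of the 180 stood lower in line b, a share that was not computed over all loci. The median log2 ratio of line b over line a was -0.16 over the 180 loci in the authors' deposited table. It was -0.014 over the loci at 10 FPKM or more in both wild types. The 180 were chosen with the same knockout values, and a difference between the lines in them was not tested.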
